A study of Rattus norvegicus with 6 samples.

Results

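The transcripts described here are those of cytochrome P450 families 1 to 4, measured in the renal cortex of 6 male rats. They were chosen as every probe that was not a control and whose RefSeq transcript belonged to a gene with a symbol starting with Cyp1, Cyp2, Cyp3 or Cyp4 followed by a letter. The rule found 92 of 61537 probes, for 53 of the 15645 genes that could be named. Of these 53 genes, 34 passed the filter on dim probes and were tested (59 of the 92 probes), and 19 did not. A probe passed if it was well above background, the scanner software's own call, on at least 3 of the 6 arrays. Passing depends in part on the group in which a gene is bright, so counts over the 34 tested genes describe those genes and not the whole family.

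All rats were Sprague-Dawley males bought at the age of 5 weeks and kept on a basal diet. For 4 weeks, 3 rats (the DNPT group) received N,N'-dinitrosopentamethylenetetramine, a nitrosamine, in a daily dose of 200 mg/kg, while 3 rats (the vehicle group) received corn oil alone. Each rat's RNA was hybridised to its own 1-colour Agilent array. Bulk cortex was measured, so fewer cells of a type and less RNA per cell cannot be told apart in any value below. Slide 1 held all 3 vehicle arrays with that of DNPT replicate 1, and slide 2 held DNPT replicates 2 and 3, so the slide and the treatment are partly confounded. Levels are log2 signals minus each array's 75th percentile, and they compare rats for a given probe, not one probe with another. With 3 arrays per group, the number of arrays limits how precise any value can be.

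Cytochrome P450 enzymes are membrane-bound haem proteins of the endoplasmic reticulum that insert an oxygen atom into their substrates with electrons passed on by the reductase POR. Families 1 to 3 are best known for the oxidation of drugs and other foreign compounds in the liver, where several members are induced through the receptors AHR, CAR and PXR. In the proximal tubule of the kidney, members of the Cyp4a and Cyp4f groups convert arachidonic acid to 20-HETE, a lipid that acts on vessel tone and salt transport, while Cyp2c23 and members of the Cyp2j group form epoxides from the same fatty acid. In rats, several Cyp2c and Cyp3a genes differ between the sexes in the liver.

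The comparison asks which of these transcripts differed between DNPT and vehicle rats. By limma with Benjamini-Hochberg adjustment over all 34915 features tested, 0 of the 34 genes passed an adjusted p of 0.05 in either direction, where 0% of all features did so on the higher and 0% on the lower side. An unadjusted limma p under 0.05 was reached by 1 of the 34 genes (2.94%), against 12.1% of all features. The groups did not overlap in 3 genes (8.82%), against 20.2% of all features. All DNPT rats exceeded all vehicle rats in 2 genes, Cyp2c23 and Cyp4f1, which is 5.88% of the tested genes against 11.9% of all features. All DNPT rats were below all vehicle rats in 1 gene, Cyp4v3, which is 2.94% against 8.32% of all features. The difference between these shares was not tested. Without DNPT replicate 1, 8 genes lay higher and 4 lower without overlap. With fewer rats, groups separate more often by construction, and the share of all features in that setting is not given here. The DNPT minus vehicle difference was positive in 22 of the 34 genes (64.7%), against 51.9% of all features, and its median was 0.09 on the log2 scale, against 0.01 for all features. The median was -0.02 with slide as a block or on slide 1 alone, where DNPT replicate 1 is the single treated rat, and -0.07 without DNPT replicate 3, with 0 genes past the adjusted threshold in each of these settings. Slide 2 held no vehicle rat.

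The differences ran from -0.96 (Cyp2c11) to 0.56 (Cyp2b3), and in 0 of the 34 genes did the size of the difference reach 1 on the log2 scale. In 20 genes it was smaller than the pooled standard deviation (SD) of the gene within groups. That within-group SD had a median of 0.28 in the P450 genes and 0.18 over all features, and it was above 1 in 6 of the 34. The wide intervals in the plot of all differences belong to those genes, such as Cyp2d1, Cyp2d5, Cyp2c11, Cyp2b3 and Cyp4f4. The spread between rats took different forms in different subfamilies.

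**Figure D1:**
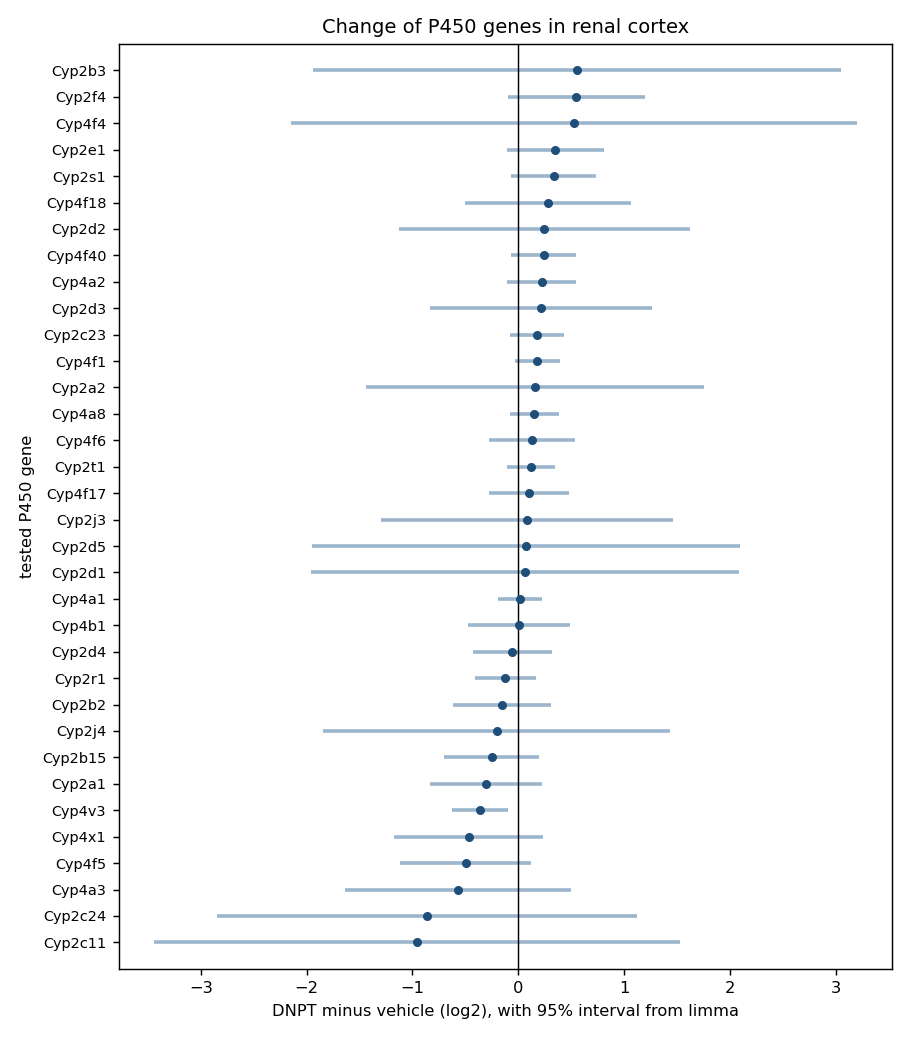
The DNPT minus vehicle difference (x axis, log2) of each of the 34 tested P450 genes (y axis, sorted by difference), with bars for the 95% interval of the limma fit over 3 rats per group. The differences run from -0.96 to 0.56, and the interval excludes 0 only for Cyp4v3, whose adjusted p is 0.379.

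The upstream sequences of the 2 pairs of neighbouring genes on which the results below turn are given first, because the Cyp4a pair has nearly the same upstream sequence yet different spread between rats, and the Cyp2d pair varied together. They are the 250 bases before the annotated gene start, from RefSeq on build GRCr8, written 5′ to 3′ on the strand of the gene. For Cyp4a2 (chr5:134170909-134171158, minus strand) and Cyp4a3 (chr5:134352237-134352486, minus strand), 236 of 245 aligned bases were identical (96.3%), and capitals mark the bases not matched in the other gene:
Cyp4a2: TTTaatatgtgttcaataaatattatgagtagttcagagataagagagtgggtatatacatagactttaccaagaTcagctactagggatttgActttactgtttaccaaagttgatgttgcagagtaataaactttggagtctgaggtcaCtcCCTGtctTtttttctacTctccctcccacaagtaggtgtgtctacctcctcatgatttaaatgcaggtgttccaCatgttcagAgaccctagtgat
Cyp4a3: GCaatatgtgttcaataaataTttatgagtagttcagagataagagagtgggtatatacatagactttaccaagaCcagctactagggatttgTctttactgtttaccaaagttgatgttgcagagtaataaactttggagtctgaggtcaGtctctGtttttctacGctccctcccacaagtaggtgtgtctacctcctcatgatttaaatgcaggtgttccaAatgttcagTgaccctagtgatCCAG

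For Cyp2d1 (chr7:115793431-115793680, minus strand) and Cyp2d5 (chr7:115784488-115784737, minus strand), 201 of 215 aligned bases were identical (93.5%), and capitals mark 2 copies of AGGNCA spaced by 1 A, a direct repeat (DR1) read by nuclear receptors such as HNF4A:
Cyp2d1: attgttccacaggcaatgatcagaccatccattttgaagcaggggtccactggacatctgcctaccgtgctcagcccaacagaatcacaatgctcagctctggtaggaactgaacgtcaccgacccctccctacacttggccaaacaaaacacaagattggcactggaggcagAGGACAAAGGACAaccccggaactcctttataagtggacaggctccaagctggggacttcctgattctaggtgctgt
Cyp2d5: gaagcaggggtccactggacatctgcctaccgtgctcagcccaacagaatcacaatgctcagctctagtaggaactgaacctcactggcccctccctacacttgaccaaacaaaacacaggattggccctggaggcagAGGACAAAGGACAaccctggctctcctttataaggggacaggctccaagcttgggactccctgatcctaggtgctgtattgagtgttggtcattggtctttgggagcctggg

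Of the 53 P450 genes, 46 had an upstream sequence, in 48 entries. On either strand, the DR1 letters occurred in 3 of the 48 entries (6.25%), those of Cyp2d1, Cyp2d3 and Cyp2d5, and in 27 of all 33469 entries (0.0807%). GCGTG, the core of the AHR response element, occurred in 11 of the 48 entries (22.9%) and in 25.9% of all. TTATGNAA, a form of the D-box bound by Dbp and Nfil3, occurred in 6 entries (12.5%), all of Cyp2a, Cyp2b and Cyp2g genes, against 3.28% of all. These matches describe the letters only, and binding was not measured.

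The Cyp4a subfamily, fatty acid omega-hydroxylases of the proximal tubule and targets of the receptor PPAR alpha, was well above background on all 6 arrays. Cyp4a1 was at 5.67, 5.70 and 5.52 in vehicle replicates 1 to 3 and at 5.68, 5.64 and 5.63 in DNPT replicates 1 to 3. The groups overlapped almost wholly, with a difference of 0.02 (SE 0.09, 95% interval -0.19 to 0.23, limma adjusted p = 0.939).

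Cyp4a2, a renal 20-HETE-forming enzyme, was at 8.71, 8.53 and 8.53 in vehicle rats and at 8.62, 9.04 and 8.78 in DNPT rats. DNPT replicates 2 and 3 lay above every vehicle rat and DNPT replicate 1 below vehicle replicate 1, with a difference of 0.22 (SE 0.13, limma adjusted p = 0.506). A second Cyp4a2 probe read 6.43, 6.39 and 6.69 in vehicle rats and 6.91, 6.78 and 6.84 in DNPT rats. On that probe the groups did not overlap, with a difference of 0.34.

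Cyp4a3, the near-copy of Cyp4a2, was at 7.85, 8.18 and 7.80 in vehicle rats and at 7.13, 8.33 and 6.65 in DNPT rats. DNPT replicates 1 and 3 lay below all vehicle rats and DNPT replicate 2 above them all, with a difference of -0.57 (SE 0.43, limma adjusted p = 0.582). Without DNPT replicate 2 that difference was -1.05, and without DNPT replicate 3 it was -0.21. The DNPT rats thus spread over more than a log2 unit in Cyp4a3 while Cyp4a2 stayed within a narrower range. A single coding gene, Cyp4a2l1, lies between these neighbours in the annotation. Probe sequences were not used here, so signal shared between such near-identical genes, here and in the other subfamilies, cannot be assigned to one of them.

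Cyp4a8, a fatty acid hydroxylase of the kidney, was at 8.09, 8.11 and 8.27 in vehicle rats and at 8.40, 8.27 and 8.25 in DNPT rats. The groups overlapped, and the 3 probes of the gene differed in sign, with differences from -0.20 to 0.15.

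Cyp2c23, the main arachidonic acid epoxygenase of the rat kidney, was at 8.39, 8.33 and 8.30 in vehicle rats and at 8.43, 8.70 and 8.43 in DNPT rats. Every DNPT rat lay above every vehicle rat, by a narrow margin in replicates 1 and 3. The difference was 0.18 (SE 0.10, 95% interval -0.08 to 0.44, limma adjusted p = 0.491), and it was 0.03 after quantile normalization and 0.09 without DNPT replicate 2.

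Cyp4f1, an omega-hydroxylase of arachidonic acid and leukotrienes, was at 6.25, 6.13 and 6.07 in vehicle rats and at 6.32, 6.38 and 6.29 in DNPT rats. It was the other gene with all DNPT rats above all vehicle rats, at a difference of 0.18 (SE 0.09, limma adjusted p = 0.438). After quantile normalization the difference was 0.07. Among its relatives, Cyp4f6 was at 3.48, 3.64 and 3.69 in vehicle rats and at 4.06, 3.52 and 3.62 in DNPT rats, so that DNPT replicate 1 alone stood above the vehicle range. The brighter Cyp4f5 probe was at -0.54, -0.50 and -0.36 in vehicle rats and at -1.08, -1.39 and -0.43 in DNPT rats. DNPT replicates 1 and 2 lay below all vehicle rats and replicate 3 within their range, and the difference was -0.50 on this probe and -0.89 on the other. Cyp4f6, Cyp4f5 and the remaining Cyp4f genes, Cyp4f4, Cyp4f17, Cyp4f18 and Cyp4f40, overlapped between the groups. Cyp4f5, Cyp4f17, Cyp4f18 and Cyp4f40 were named after their values were seen.

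Cyp4v3, a fatty acid omega-hydroxylase whose human counterpart is mutated in a retinal dystrophy, was at -1.75, -1.85 and -2.05 in vehicle rats and at -2.29, -2.28 and -2.15 in DNPT rats. All 3 DNPT rats lay below all 3 vehicle rats. The difference was -0.36 (SE 0.11, limma adjusted p = 0.379), and on a second probe it was -0.30. It was the single P450 gene with an unadjusted p under 0.05, and the difference was -0.23 after normexp background correction and -0.41 on slide 1 alone.

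Cyp2e1, which oxidises small molecules such as ethanol and nitrosamines, was at 6.5, 6.01 and 5.82 in vehicle rats and at 6.47, 6.41 and 6.5 in DNPT rats. Vehicle replicate 1 was as high as the DNPT rats and the other vehicle rats were lower, so the SD was 0.36 in vehicle rats and 0.04 in DNPT rats (n = 3 each). The difference was 0.35 (SE 0.19, 95% interval -0.11 to 0.81, limma adjusted p = 0.467), and it was 0.55 without vehicle replicate 1, 0.20 without vehicle replicate 3 and 0.22 after normexp background correction. Further genes gave small differences. They were Cyp2r1, a hydroxylase that activates vitamin D, at -0.12 (SE 0.12), Cyp4b1, which activates some protoxins, at 0.01 (SE 0.19), and Cyp2d4 at -0.06 (SE 0.15). Cyp2s1, an extrahepatic member that AHR can induce, was at 0.33 (SE 0.16, limma adjusted p = 0.444) on its brightest probe. Its 4 probes ran from -0.01 to 0.33.

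**Figure D2:**
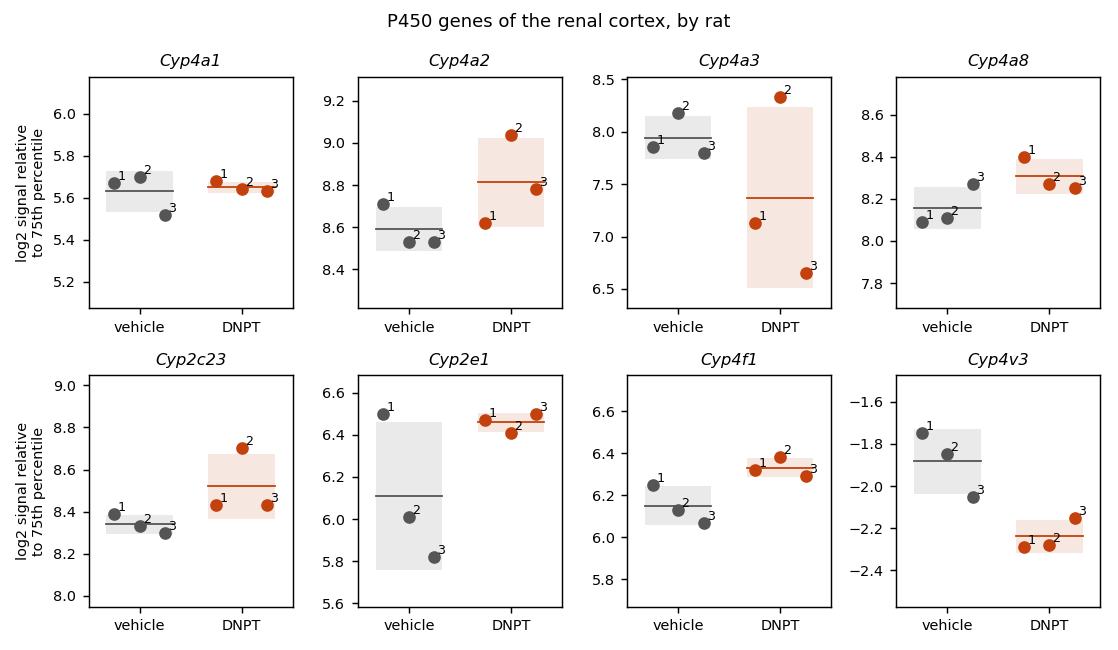
Levels by rat of 8 P450 genes of the renal cortex (y axes, log2 signal relative to the 75th percentile of the array; x axes, vehicle and DNPT groups, with the replicate number beside each point). Lines are group means and bands are 1 SD over 3 rats; Cyp4v3, Cyp2c23 and Cyp4f1 separate by group, while DNPT rats range from 6.65 to 8.33 in Cyp4a3.

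A second form of variation lay within both groups. Vehicle replicate 2 was the lowest vehicle rat and DNPT replicate 1 the lowest DNPT rat in 7 of the 34 tested genes (20.6%), against 10.9% of all features. This pattern was chosen after the values were seen. The genes were Cyp2c11, Cyp2c24, Cyp2d1, Cyp2d4, Cyp2d5, Cyp2j4 and Cyp2s1.

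Cyp2d1, a member of the drug-oxidising Cyp2d subfamily, was at 5.07, 2.39 and 4.84 in vehicle rats and at 3.20, 4.69 and 4.6 in DNPT rats. The highest vehicle rat was 6.43-fold above the lowest, and the highest DNPT rat 2.80-fold above the lowest, while the group means differed by 0.07 (SE 0.82, limma adjusted p = 0.979). Its SD within groups was above that of 98.4% of all features. Leaving out 1 rat moved the difference: it turned to -0.79 without vehicle replicate 2 and rose to 0.55 without DNPT replicate 1.

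Cyp2d5, the neighbour with no coding gene between, was at 5.26, 2.57 and 5.06 in vehicle rats and at 3.42, 4.87 and 4.81 in DNPT rats. Its second probe had the same low rats, at 3.57, 0.32 and 3.31 in vehicle rats and 1.56, 2.89 and 2.82 in DNPT rats. Cyp2d2, named after its values were seen, was at 2.98, 1.08 and 2.95 in vehicle rats and at 2.42, 2.31 and 3.02 in DNPT rats. Vehicle replicate 2 was again the lowest, but DNPT replicate 1 was not set apart. Cyp2d4, the member best known from brain, was at 1.76, 1.23 and 1.43 in vehicle rats and at 1.31, 1.46 and 1.47 in DNPT rats, a far narrower range.

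Cyp2c11, the male-specific testosterone hydroxylase of rat liver, was at 0.92, -2.28 and -0.08 in vehicle rats and at -2.64, -0.05 and -1.63 in DNPT rats. The range was 9.21-fold among vehicle rats and 6.0-fold among DNPT rats, and the within-group SD was above that of 99.1% of features. The difference of -0.96, the lowest among the tested genes, had an SE of 1.01 and an adjusted limma p of 0.694, and it was -1.86 without vehicle replicate 2 and -0.36 without DNPT replicate 1.

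Its neighbour Cyp2c24, a kidney-expressed member named after its values were seen, was at 2.53, -0.24 and 1.25 in vehicle rats and at -0.60, 1.26 and 0.30 in DNPT rats. The order of the rats was close to that in Cyp2c11, with a 6.83-fold range among vehicle rats and a 3.61-fold range among DNPT rats. No coding gene lies between Cyp2c11 and Cyp2c24, and 181 of 218 aligned upstream bases were identical (83.0%).

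Cyp2j4, an epoxygenase also found in intestine, was at -0.41, -1.42 and -0.07 in vehicle rats and at -1.86, 0.47 and -1.12 in DNPT rats, and its other probes had the same lowest rats. Cyp2j3, an epoxygenase known from heart, was at -2.38, -2.67 and -2.91 in vehicle rats and at -3.48, -1.31 and -2.92 in DNPT rats on its brightest probe. Its 4 probes ran from -0.46 to 0.08 in difference and did not order the rats alike.

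Hnf4a was at 3.41, 4.10 and 3.73 in vehicle rats and at 3.91, 4.03 and 3.66 in DNPT rats. Cyp2d3, the other gene with the DR1 letters, was at -5.94, -5.95 and -5.06 in vehicle rats and at -5.75, -5.93 and -4.62 in DNPT rats. It was above background on 2 vehicle arrays and 1 DNPT array. Both genes were named after their values were seen. The part of HNF4A in the Cyp2d values was not tested, and its activity was not measured.

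Of 7 markers of the late proximal tubule (segment S3), 3 had the same lowest rats, vehicle replicate 2 and DNPT replicate 1 (Slc7a13, Slc22a7 and Slc3a1), and Slc5a1, Slc7a9, Acy3 and Slc22a13 did not. Over all features the share with these lowest rats was 10.9%. The pattern was not particular to S3. It occurred in 3 of 5 thick ascending limb markers (Umod, Slc12a1 and Egf), and in 0 to 2 markers of each other list. Slc7a13, an amino acid transporter of S3, was at 5.20, 2.77 and 4.78 in vehicle rats and at 3.11, 5.23 and 3.92 in DNPT rats, and Slc22a7, an organic anion transporter, had its lowest values in the same rats, -3.62 and -4.34. The summed linear signal of all 7 S3 markers ran from 494 to 581 in vehicle rats and from 447 to 533 in DNPT rats, with all 7 above background on every array. That sum was 581, 496 and 494 in vehicle rats and 447, 533 and 477 in DNPT rats. In 6 of 12 marker lists the summed signal was lowest in vehicle replicate 2 and DNPT replicate 1 within their groups, namely those of proximal tubule S1 and S2, thick ascending limb, distal tubule, podocyte, perirenal fat, and inner medulla and urothelium. The sum over 5 perirenal fat markers was 1.52, 0.877 and 1.32 in vehicle rats and 0.771, 1.38 and 1.01 in DNPT rats, the same order of the 6 rats as in Cyp2c11. Of these 5 markers, Adipoq and Cidec were lowest in those rats, Cidec at -2.91 and -3.81, and between 2 and 4 were above background on an array. The sum over 5 thick ascending limb markers was 377, 310 and 354 in vehicle rats and 275, 375 and 314 in DNPT rats. That too is the order of the 6 rats in Cyp2c11, so the order is not particular to the fat markers. The part of tubule or fat content in the P450 values was not tested.

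**Figure D3:**
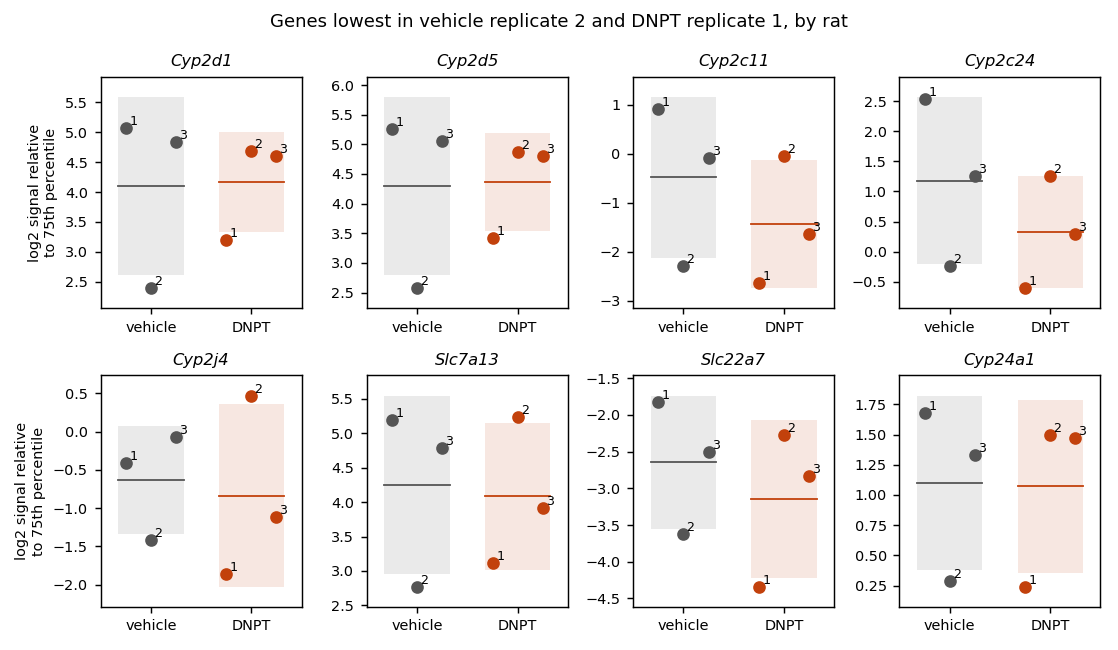
Levels by rat of 5 P450 genes, the S3 transporters Slc7a13 and Slc22a7, and Cyp24a1 (y axes, log2 signal relative to the 75th percentile of the array; x axes, group, with replicate numbers beside the points). Lines are means and bands 1 SD over 3 rats; vehicle replicate 2 and DNPT replicate 1 are the lowest of their groups in all 8 panels, which were chosen for that.

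A further form of variation concerned genes best known from liver. Of the 92 P450 probes, 8 (8.70%) were well above background on vehicle replicate 2 and DNPT replicate 3 and on no other array, against 71 of all 61537 probes (0.115%). They belonged to Cyp2c6v1, Cyp2c7, Cyp2c13 and Cyp3a2, hepatic drug and steroid hydroxylases. A further 5 P450 probes (5.43%), against 0.687% of all probes, were above background on DNPT replicate 3 only. They belonged to Cyp2b21, Cyp2c7, Cyp3a18 and Cyp3a23-3a1. Cyp3a18 was at -7.07, -6.46 and -7.07 in vehicle rats and at -7.39, -6.62 and -3.81 in DNPT rats, of which DNPT replicate 3 alone measured it. DNPT replicate 3 was the highest of the 6 rats in 9 of the 34 tested genes (26.5%), against 21.3% of all features. These patterns were chosen after the values were seen, as were the names of Cyp2c6v1, Cyp2c7, Cyp2c13, Cyp2b21 and Cyp2b3.

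Cyp2c13 was at -8.18, -4.50 and -7.24 in vehicle rats and at -7.90, -7.72 and -0.77 in DNPT rats. Cyp2c6v1 was at -8.14, -4.89 and -8.15 in vehicle rats and at -7.81, -7.87 and -1.22 in DNPT rats, and its second probe had the same high rats. Cyp3a2, a male-predominant steroid hydroxylase, was at -8.18, -3.67 and -6.18 in vehicle rats and at -7.63, -7.80 and -1.16 in DNPT rats. In each of these genes DNPT replicate 3 was far above all other rats, vehicle replicate 2 came next, and the remaining values were not well above background.

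All 6 probes of Cyp2c7 had their highest value in DNPT replicate 3. Among the tested genes, Cyp2b3 was at -4.99, -3.61 and -4.26 in vehicle rats and at -4.16, -5.47 and -1.56 in DNPT rats, with a difference of 0.56 that was -0.53 without DNPT replicate 3. On its second probe, also highest in DNPT replicate 3, the difference was -0.29, and over the mean of both probes it was 0.13. Cyp4f4, a leukotriene hydroxylase, was at -5.52, -5.55 and -6.90 in vehicle rats and at -5.70, -7.45 and -3.24 in DNPT rats, with a difference of 0.53 that was -0.59 without DNPT replicate 3. The positive differences of Cyp4f4 and of the brighter Cyp2b3 probe rested on that rat.

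Of the 11 hepatocyte markers, 9 had DNPT replicate 3 highest. The share over all features, 21.3%, covers tested features only, whereas Cps1, Tat and C9 among the 9 were not tested. The 9 include Cps1 and Tat, which were above background on no array, so their order is not a measured level. They also include C9, above background on 1 array of each group. In 5 of the 9, vehicle replicate 2 was also the highest vehicle rat (Alb, Fgb, Apoa1, Serpina1 and C9). Apob and F2 were highest in DNPT replicate 1, at 0.17 and 1.44. Alb, serum albumin, was at -4.72, 0.48 and -1.84 in vehicle rats and at -1.25, -4.73 and 3.76 in DNPT rats. Serpina1, a plasma protease inhibitor, and Fabp1, the liver fatty acid binding protein taken from the list of PPAR alpha targets, had DNPT replicate 3 highest and vehicle replicate 2 next; both were named after their values were seen. The summed linear signal of the 11 hepatocyte markers ran from 5.06 to 6.99 in vehicle rats and from 5.19 to 23.0 in DNPT rats, with 23.0 in DNPT replicate 3, 7.30 in DNPT replicate 1 and 6.99 in vehicle replicate 2. Between 7 and 9 of the 11 were above background on an array, and Cps1 and Tat were above background on none. The part of liver RNA in the P450 values was not tested.

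**Figure D4:**
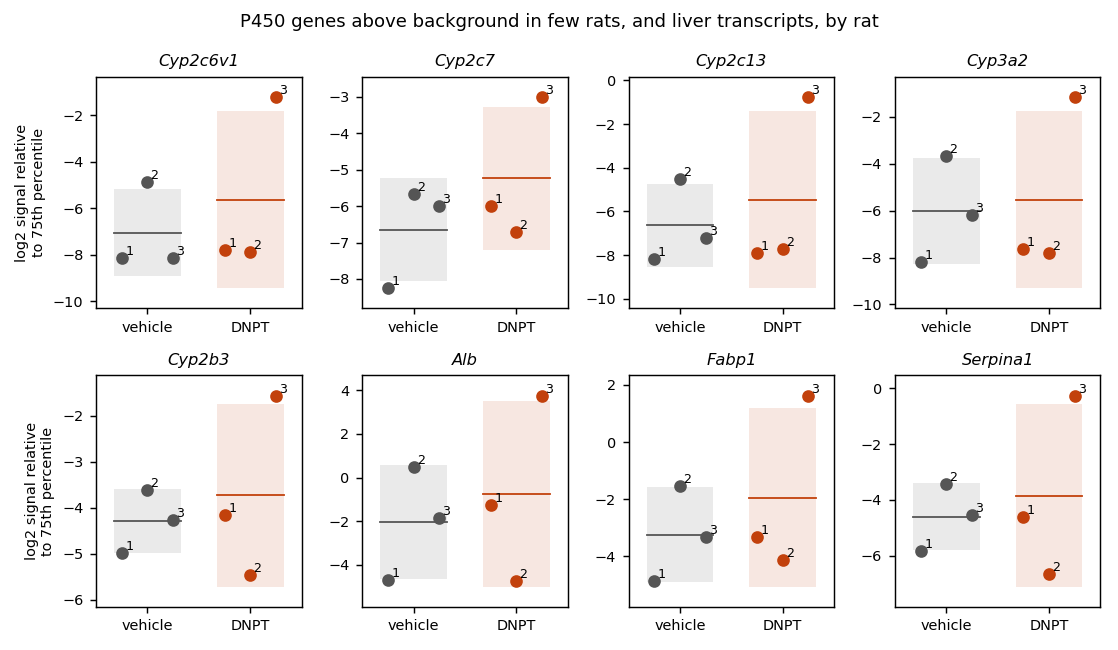
Levels by rat of 5 P450 genes and of the liver transcripts Alb, Fabp1 and Serpina1 (y axes, log2 signal relative to the 75th percentile of the array; x axes, group, with replicate numbers beside the points). Lines are means and bands 1 SD over 3 rats. DNPT replicate 3 is the highest rat and vehicle replicate 2 the highest vehicle rat in all 8 panels, which were chosen for that. Cyp2c13 reads -0.77 and -4.50 in these rats.

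Several genes known as inducible in liver were above background on few arrays or none. Cyp1a1, the AHR-induced hydroxylase of polycyclic hydrocarbons, was at -8.13, -8.28 and -8.20 in vehicle rats and at -7.90, -4.59 and -7.55 in DNPT rats. It was well above background in DNPT replicate 2 alone, so 1 of the 6 arrays measured it and the others give only a bound. Cyp1a2 and Cyp1b1, its relatives, Cyp2b1, the CAR-induced form, Cyp2j10 and Cyp3a9 were well above background on no array. Cyp2b2, the other well-known CAR-induced form, was named after its values were seen. Its brightest probe was above background on all 6 arrays, at -1.87, -1.69 and -1.89 in vehicle rats and at -1.89, -2.35 and -1.67 in DNPT rats, and the groups overlapped. Its other probes were dimmer, with vehicle means from -5.91 to -4.94, and not all were above background on every array. In all, 10 of the 53 genes had no probe above background on any array. Cyp2a1, a testosterone hydroxylase, was tested, with a difference of -0.31 (SE 0.21, limma adjusted p = 0.554), and Cyp2u1 could not be matched to a probe.

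Among 17 genes of electron supply and haem, 6 had a higher signal in DNPT rats at an unadjusted limma p under 0.05 and 0 a lower one, against 5.95% and 6.16% of all features, and 0 passed after adjustment. Por, the reductase that serves all of these P450 enzymes, was at 2.78, 2.90 and 3.02 in vehicle rats and at 3.16, 3.21 and 3.53 in DNPT rats, with a difference of 0.40 (SE 0.13, adjusted p = 0.393). Alad, an enzyme of haem synthesis, had a difference of 0.47 (adjusted p = 0.366), Hmox2, a haem oxygenase, 0.22, and Cyb5a, cytochrome b5, 0.38. In these 4 genes, named for their small p, the groups did not overlap.

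Of 20 receptors and factors that control P450 genes, 5 were higher and 1 lower at that unadjusted threshold, and 0 passed after adjustment. Over all features, 5.95% were higher and 6.16% lower at it, also for the PPAR alpha targets below. Dbp, a D-box activator of some Cyp2 genes, had a difference of 2.86 (SE 0.23, limma adjusted p = 0.112) and Nfil3, which represses through the same box, one of -1.93 (adjusted p = 0.149). The D-box genes Cyp2b2 and Cyp2b3 had differences of -0.15 and 0.56 on their brightest probes, with overlapping groups. Neither sign held across probes. The 5 Cyp2b2 probes ran from -0.15 to 0.30, and the second Cyp2b3 probe was at -0.29. The 0.56 of Cyp2b3 rested on DNPT replicate 3, as given above. Ppara, the receptor behind Cyp4a induction, was at 0.11, -0.30 and -0.04 in vehicle rats and at 0.85, 1.02 and 0.61 in DNPT rats, without overlap (difference 0.91, SE 0.16, adjusted p = 0.266). Of 18 other PPAR alpha targets, 0 were higher and 1, the lipid droplet protein Plin2, was lower (-0.38) at the unadjusted threshold. On their brightest probes the Cyp4a genes overlapped, with differences of 0.02 (Cyp4a1), 0.22 (Cyp4a2), -0.57 (Cyp4a3) and 0.15 (Cyp4a8). A second Cyp4a2 probe differed by 0.34 without overlap. The part of Ppara in these values was not tested.

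Of 7 AHR targets outside the P450 families, 1 was higher and 1 lower at the unadjusted threshold, against 5.95% and 6.16% of all features. They were the quinone reductase Nqo1 (0.86, limma adjusted p = 0.334) and the glucuronosyltransferase Ugt1a6 (-0.31). The same shares apply to the lists that follow. Of 14 CAR and PXR targets, 4 were higher and 2 lower, among them the epoxide hydrolase Ephx1 (0.33), the carboxylesterase Ces2c (0.39) and Ugt1a1 (-0.80, adjusted p = 0.149). Of 18 other enzymes of arachidonic acid and its epoxides, 3 were higher and 2 lower, with Ptgds, a prostaglandin D synthase, at -0.98 (adjusted p = 0.353) and the lipoxygenase Alox12 at 0.43. None of these lists held a gene past the adjusted threshold, and the 11 S1 and S2 proximal tubule markers, all above background in every rat, had summed linear signals of 2460 to 2660 in vehicle rats and 2790 to 3200 in DNPT rats. The part of that tubule marker difference in the values of Cyp4a2, Cyp2c23, Cyp4f1 and Por was not tested.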

How the data were processed

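Per the labels' protocols, total RNA of the renal cortex was amplified and labelled with Cy3 for 1-colour Agilent arrays, and per the submitters' processing notes the scans were read with Agilent Feature Extraction 10.7. The deposited scanner output holds the processed intensity of each spot, background-corrected by that software per the file headers. A deposited value table gives a ratio on a linear scale, namely the processed signal over a constant near each array's 75th percentile (for 100% of probes to within 0.5%). Its column medians were 0.112 to 0.116, and no source used here says how it was made. From the deposited intensities, log2 values minus the 75th percentile of each array were computed. Control spots and 113 flagged values were left out. Between 42116 and 45167 probes were well above background on an array.

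Accessions of probes were matched to RefSeq genes (assembly GRCr8): 28206 of 61537 probes matched 1 gene, 33331 none. A gene was represented by whichever tested probe had the highest mean signal; unnamed probes stood alone. DNPT was compared with vehicle in limma 3.58.1 (lmFit, eBayes; R 4.3.3) without covariates, and p-values were adjusted by Benjamini-Hochberg across the 34915 features tested. Values for a second probe come from a fit of single probes. An exact permutation test of 3 against 3 cannot go below 0.1 and was not used. The labels call the samples biological replicates of separate rats.

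The members and lists were chosen with earlier results of these data known. Named genes were members with an unadjusted p under 0.05, the 10 with the highest mean signal, a fixed list of well-known members, and up to 4 genes per pathway list by smallest p. Alternatives were other scalings, normexp with offset 50 on the median spot signal (the plan named the raw spot signal), other filters, the mean of a gene's probes, an intensity trend, a block for slide or for replicate number, slide 1 by itself and each sample left out. Leaving out vehicle replicate 2 and DNPT replicate 3 together was added after seeing the data. The fit was tested on simulated data. Python 3.11.15 with pandas 2.3.3 and matplotlib 3.10.9 served for tables and plots.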

Additional observations from a re-analysis of the deposited data

How the results depend on the processing

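No P450 gene passed an adjusted p of 0.05 under any of the alternatives. Over all features, limma called 4 higher and 1 lower after normexp, 1 higher with slide as a block, and 2 higher without vehicle replicate 2 and DNPT replicate 3 together; leaving out 1 sample gave 0 to 40 higher and 0 to 583 lower, the upper ends without DNPT replicate 1. P450 genes at an unadjusted p under 0.05 numbered 1 as reported. They numbered 2 after normexp, with the mean of probes, with an intensity trend or with slide as a block. They numbered 3 of 53 without a filter and 3 of 34 without vehicle replicate 2 and DNPT replicate 3. With 1 sample left out they numbered 0 to 6, with 6 without DNPT replicate 1. The count over all features was 4227 of 34915 as reported and 8737 of 48976 without a filter. It was 1871 without that pair of samples. With 1 sample left out it was 2541 to 7281, with 7281 without DNPT replicate 1. P450 genes with all DNPT rats higher, 2 as reported, numbered 0 after quantile normalization, 1 after normexp and 6 of 53 without a filter. They numbered 4 without that pair of samples and 2 to 8 with 1 sample left out. Those with all DNPT rats lower, 1 as reported, numbered 0 after normexp, 8 without that pair, and 1 to 4 with 1 sample left out. With fewer samples, groups separate more often by construction, and shares of all features without overlap are not given for these settings.

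The median difference of the tested P450 genes was 0.091 as reported. Without a filter it was 0.185, against 0.052 over all features. It was -0.019 with slide as a block or on slide 1 alone, and -0.153 without vehicle replicate 2 and DNPT replicate 3. With 1 sample left out it ran from -0.072 (without DNPT replicate 3) to 0.206 (without DNPT replicate 1). Of the 34 genes, 11 changed sign with slide as a block and 0 with median scaling or the value table. With replicate number as a block, 0 P450 genes had an unadjusted p under 0.05; same-numbered samples did not deviate together (r of -0.18, -0.06 and -0.18), so the numbers were not taken as pairs. The 19 dim genes and the confounded slide limit what can be said of this family.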

Other observations

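P450 genes of the higher families (17 on the array, 11 tested) gave 0 genes at an unadjusted p under 0.05 and a median difference of -0.10. Over all features, 12.1% reached that threshold and the median difference was 0.01. Cyp24a1, which inactivates vitamin D hormone, was at 1.68, 0.29 and 1.33 in vehicle rats and at 0.24, 1.5 and 1.47 in DNPT rats, so its lowest rats were those of Cyp2d1 and Cyp2d5. Cyp11b3, a steroid hydroxylase of the adrenal cortex, was at -5.59, -5.13 and -4.75 in vehicle rats and at -2.50, -2.56 and -5.18 in DNPT rats, with DNPT replicates 1 and 2 above all others (difference 1.75, SE 0.76, limma adjusted p = 0.423). The summed linear signal of the 7 adrenal cortex markers ran from 0.454 to 0.530 in vehicle rats and from 0.396 to 0.560 in DNPT rats. Cyp20a1, at a difference of 0.19, was the 1 gene of the 11 tested with all DNPT rats above all vehicle rats, against 11.9% of all features. Cyp11b3 and Cyp20a1 were named after their values were seen.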
